A study of Lactuca sativa with 36 samples.

Results

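Superoxide dismutases of the SOD1 type carry copper and zinc and turn superoxide into hydrogen peroxide and oxygen, which other enzymes such as catalases and ascorbate peroxidases then remove. The copper is delivered by a chaperone, and in plants enzymes of this type are known from the cytosol, the plastid and the peroxisome. Cadmium is known to raise reactive oxygen species in plant tissue, and melatonin is studied as an antioxidant that can ease that stress. The 3 genes described here were Lsat_1_v5_gn_2_58341, Lsat_1_v5_gn_6_16060 and Lsat_1_v5_gn_6_43340, written below as 2_58341, 6_16060 and 6_43340. They were 3 of the 19584 genes in the deposited table, and they held 12 of its 59872 isoforms. They were taken from the SOD1 genes in the study's figures, which were drawn from these same libraries, so their choice was not independent of the values given here. No product name, cell compartment or sequence was assigned to any of them.

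Illumina RNA-seq was made from seedlings of Italian lettuce (*Lactuca sativa*) in 12 groups of 3 biological replicates, 36 libraries in all. Leaves (L) and roots (R) were taken on days 0, 1 and 5 of a treatment with 50 μmol/L CdCl2, from seedlings given no melatonin (Cd) or 1 μmol/L melatonin before the metal (CdM), so that RCdM5 is the roots of melatonin seedlings on day 5. Every group of days 1 and 5 had received CdCl2, therefore the effect of the metal and that of plant age cannot be told apart. The labels give 20 days of growth before the metal for all libraries except LCdM1 replicate 2 and RCdM1 replicate 2, for which they give 21. Levels are FPKM (fragments scaled to transcript length and library size), deposited per isoform and summed per gene here, and they do not give the number of reads behind a value.

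The tissue labels were checked with 10 genes of the oxygen evolving complex of photosystem II. Their summed level was 44059 to 83066 FPKM in the 18 leaf libraries and 142 to 933 FPKM in the 18 root libraries, and all 10 were lower in roots. The FPKM of all genes added up to 1729631 to 2611849 in leaves and 1259744 to 1426917 in roots, and scaling the libraries to a common median changed no call on the 3 genes. On the log2(FPKM + 1) scale used for all tests, the median gene was 0.11 higher in roots than in leaves.

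The 3 genes stood at different levels in the 2 tissues. In roots 6_16060 was the most abundant, with a mean of 139 FPKM that lay above 89.3% of the 17227 genes tested there, followed by 6_43340 at 19.7 FPKM and 2_58341 at 4.84 FPKM, the last above only 22.6% of the genes. In leaves the means were 75.9 FPKM for 6_16060, 55.2 FPKM for 6_43340 and 38.5 FPKM for 2_58341. In the plot of levels by library, 2_58341 separated the tissues, the day 5 libraries of 6_16060 lay below those of day 0 in roots and overlapped them in leaves, and the day 5 libraries of 6_43340 lay below those of day 0 in both.

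**Figure D1:**
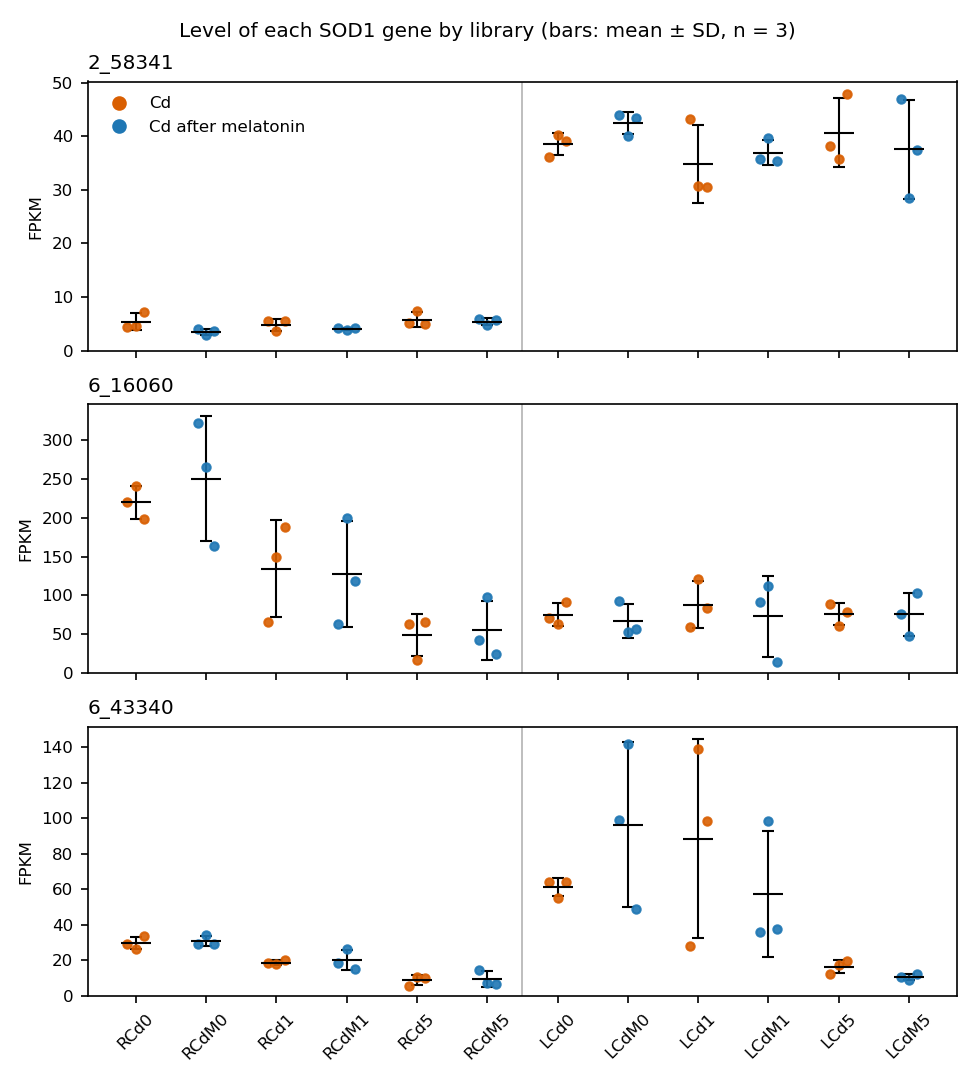
FPKM of each SOD1 gene (rows) in the 36 libraries by group, with roots on the left and leaves on the right. Points are libraries and the bars are mean ± SD of 3. The 18 root values of 2_58341 lie between 2.92 and 7.33 FPKM, below all leaf values, and 6_16060 falls in roots from a mean of 220 FPKM in RCd0 to 48.8 FPKM in RCd5.

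2_58341 was far more abundant in leaves than in roots. Its 18 leaf libraries lay between 28.4 and 47.9 FPKM with a median of 38.7 FPKM, and its 18 root libraries between 2.92 and 7.33 FPKM with a median of 4.67 FPKM, so the tissues did not overlap. The difference of roots minus leaves, averaged over the 6 conditions, was -2.77 (SE 0.08) on the log2 scale, with an adjusted p of 5.6e-23 (limma, Benjamini-Hochberg over 18056 genes). It held in each condition, from -2.56 in CdM5 to -3.27 in CdM0. The root median was 12.1% of the leaf median for this gene, against 0.43% for the summed photosystem II genes.

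No change of 2_58341 between days was called in either tissue. The leaf values were 36.2, 40.2 and 39.2 FPKM in LCd0, 43.2, 30.6 and 30.6 FPKM in LCd1, and 38.2, 35.7 and 47.9 FPKM in LCd5. Leaves of melatonin seedlings gave 44.0, 40.1 and 43.4 FPKM in LCdM0, 35.7, 39.6 and 35.4 FPKM in LCdM1, and 46.9, 28.4 and 37.5 FPKM in LCdM5. These groups overlapped from day to day except LCdM0 and LCdM1, and none of the 6 changes between days in leaves passed (adjusted p 0.46 or higher, limma).

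In roots 2_58341 was at 4.41, 4.60 and 7.17 FPKM in RCd0, 5.51, 3.57 and 5.51 FPKM in RCd1, and 5.15, 7.33 and 4.91 FPKM in RCd5. The melatonin groups had 3.95, 2.92 and 3.72 FPKM in RCdM0, 4.16, 3.77 and 4.25 FPKM in RCdM1, and 5.83, 4.73 and 5.72 FPKM in RCdM5. RCdM5 lay above RCdM0 in every library, with a change of 0.51 (SE 0.19, 95% interval 0.09 to 0.92) that did not pass the adjustment (adjusted p = 0.19, limma). This root change was 0.71 above the leaf change of the same groups (SE 0.26, adjusted p = 0.077), which passed only when LCdM5 replicate 1 was left out (0.88, adjusted p = 0.034). Ordered by mean, the 6 leaf groups ran from LCdM0 (42.5 FPKM) to LCd1 (34.8 FPKM) and the 6 root groups from RCd5 (5.80 FPKM) to RCdM0 (3.53 FPKM), and of the 11 pairs of neighbours in that order the only 1 without overlap was the step from leaves to roots.

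6_16060 was highest in roots at the start and fell there with time. On day 0 the root libraries without melatonin had 220, 240 and 198 FPKM. On day 1 they had 66.0, 150 and 188 FPKM, and on day 5 they had 62.8, 17.4 and 66.3 FPKM. Day 5 lay below day 0 in every library, while day 1 spread over nearly the whole range between them. From day 0 to day 5 the change was -2.36 (SE 0.58), with an adjusted p of 0.030 (limma over 17227 genes), and the ratio of mean levels was 4.50.

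In roots of melatonin seedlings 6_16060 was also lower on day 5. RCdM0 had 322, 265 and 163 FPKM, RCdM1 had 63.5, 199 and 119 FPKM, and RCdM5 had 43.2, 97.5 and 25.2 FPKM. The groups of days 0 and 5 again did not overlap, and the change was -2.32 (SE 0.58, adjusted p = 0.046, limma). The parts of this fall, days 0 to 1 and days 1 to 5, did not pass by themselves (changes of -0.83 and -1.53 without melatonin, -1.06 and -1.25 with it, adjusted p from 0.17 to 0.46). Both calls from day 0 to day 5 rest on few libraries: they were lost without 4 of the 6 libraries in turn for Cd (adjusted p 0.068 to 0.11, with -1.75 when RCd5 replicate 2 was left out) and without 5 of 6 for CdM (0.065 to 0.18).

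In leaves no change of 6_16060 between days was called. The values were 70.5, 63.7 and 91.8 FPKM in LCd0, 60.0, 121 and 83.9 FPKM in LCd1, and 88.7, 60.6 and 78.4 FPKM in LCd5. With melatonin they were 92.4, 53.1 and 56.5 FPKM in LCdM0, 92.1, 113 and 14.4 FPKM in LCdM1, and 76.2, 48.3 and 103 FPKM in LCdM5. Groups of different days overlapped throughout, and LCdM1 replicate 3 was the lowest of all leaf libraries. The change from day 0 to day 5 was 0.01 (95% interval -1.19 to 1.22) without melatonin and 0.15 (-1.06 to 1.35) with it.

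The root change of 6_16060 minus its leaf change was -2.37 (SE 0.84) for Cd from day 0 to day 5 and -2.46 (SE 0.84) for CdM. With adjusted p of 0.061 and 0.056 (limma over 18056 genes), a difference between the tissues in this course was not called, although 13.5% and 11.9% of all genes were called in these comparisons. The Cd value passed when the compared groups were fitted alone (adjusted p = 0.039), and the CdM value passed without LCdM5 replicate 2 or RCdM5 replicate 2 (-2.75 to -2.97). The roots stood above the leaves on day 0, by 1.54 (adjusted p = 0.026) in Cd0 and 1.87 (adjusted p = 0.0081) in CdM0. The Cd0 call was lost without 4 of its 6 libraries in turn (1.43 to 1.54). On day 1 the estimates were 0.53 and 1.08 and did not pass, but the second, in CdM1, passed at 1.61 without LCdM1 replicate 2 (adjusted p = 0.034). On day 5 the estimates were -0.82 in Cd5 (adjusted p = 0.24) and -0.60 in CdM5 (adjusted p = 0.40). Ordered by mean, the levels ran from RCdM0 (250 FPKM) and RCd0 (220 FPKM), which overlapped each other and stood apart from the third, RCd1 (135 FPKM), down to RCdM5 (55.3 FPKM) and RCd5 (48.8 FPKM) at the end, with all 6 leaf groups between 67.4 and 88.3 FPKM, and 10 of the 11 neighbouring pairs overlapped.

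6_43340 fell by day 5 in both tissues. In leaves without melatonin it was at 64.3, 55.4 and 64.2 FPKM on day 0, at 28.1, 139 and 98.5 FPKM on day 1, and at 12.6, 17.4 and 19.5 FPKM on day 5. The day 1 libraries were the most scattered, and each of them lay above all day 5 libraries. The change from day 1 to day 5 was -2.10 (SE 0.52, adjusted p = 0.025) and that from day 0 to day 5 was -1.85 (SE 0.52, adjusted p = 0.024, limma over 16800 genes).

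With melatonin the leaf values of 6_43340 were 99.3, 142 and 48.7 FPKM in LCdM0, 35.8, 98.6 and 37.9 FPKM in LCdM1, and 10.7, 9.01 and 12.2 FPKM in LCdM5. The fall was -2.18 (SE 0.52, adjusted p = 0.016) from day 1 to day 5 and -2.95 (SE 0.52, adjusted p = 0.0012) from day 0 to day 5, and the ratio of mean levels between days 0 and 5 was 9.07. LCdM5 lay below LCd5 in every library, but this difference of -0.57 (95% interval -1.68 to 0.53) did not pass (adjusted p = 0.80). The call for Cd was lost without 4 of 6 libraries in turn in either interval (-1.64 to -2.15 and -1.68 to -1.90), that for CdM from day 1 to day 5 without LCdM1 replicate 2 (-1.71, adjusted p = 0.082), while that for CdM from day 0 to day 5 held without any of its 6 libraries (-2.61 to -3.37).

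In roots the 6_43340 libraries of each later day lay below those of the earlier days. RCd0 had 29.2, 26.7 and 33.6 FPKM, RCd1 had 18.3, 17.9 and 20.2 FPKM, and RCd5 had 5.65, 10.7 and 10.1 FPKM, with no overlap between the 3 days. RCdM0 had 29.5, 34.3 and 29.4 FPKM, RCdM1 had 18.7, 26.2 and 15.2 FPKM, and RCdM5 had 14.6, 7.25 and 6.67 FPKM, again with no overlap. The changes from day 0 to day 5 were -1.68 (SE 0.27, adjusted p = 0.0030) and, with melatonin, -1.68 (SE 0.27, adjusted p = 0.0041), and both held without any single library. Those from day 0 to day 1 (-0.63 and -0.64) and from day 1 to day 5 (-1.05 and -1.04) did not pass, with adjusted p of 0.16, 0.32, 0.055 and 0.099 (limma). The last of these passed without RCdM5 replicate 1 (-1.37, adjusted p = 0.043).

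The root fall of 6_43340 did not differ from the leaf fall by a called amount. The root change minus the leaf change was 0.17 (95% interval -1.07 to 1.41) for Cd and 1.27 (0.03 to 2.51, adjusted p = 0.18) for CdM from day 0 to day 5. From day 1 to day 5 in Cd it was 1.05 (adjusted p = 0.30) and passed only without LCd1 replicate 1 (1.73, adjusted p = 0.039). Roots were below leaves on days 0 and 1, by -1.02 in Cd0, -1.90 in Cd1, -1.48 in CdM0 and -1.35 in CdM1 (adjusted p of 0.040, 0.00036, 0.0037 and 0.0080), and not by a called amount on day 5 (-0.85 and -0.21, adjusted p of 0.086 and 0.69). The Cd0 call was lost without any 1 of its 6 libraries (adjusted p 0.053 to 0.099) and the CdM1 call without LCdM1 replicate 2 (-0.88, adjusted p = 0.092). The order of means began with the 4 leaf groups of days 0 and 1, from LCdM0 (96.6 FPKM) to LCdM1 (57.4 FPKM), and 8 of 11 neighbouring pairs overlapped. The 3 gaps were between LCdM1 and RCdM0 (31.1 FPKM), between RCd0 (29.8 FPKM) and RCdM1 (20.0 FPKM), and between LCd5 (16.5 FPKM) and LCdM5 (10.6 FPKM).

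The calls were read against the share of all genes called. From day 0 to day 5 in roots 2 of the 3 genes were lower in Cd, where 2.98% of all genes tested were called lower, and 2 of 3 in CdM, where 1.04% were. In leaves 1 of 3 was lower in each, with 11.1% of all genes in Cd and 14.8% in CdM. From day 1 to day 5, 1 of 3 was lower in leaves (4.42% of all genes in Cd, 8.39% in CdM) and 0 of 3 in roots (1.13% and 0.104%). In roots 2 of 3 were lower at an unadjusted p under 0.05 in each, as were 9.29% of all genes in Cd and 4.44% in CdM. From day 0 to day 1 limma called 0 of 3 in roots (9.36% of all genes called in either direction in Cd, 1.21% in CdM). There 1 of 3 had an unadjusted p under 0.05 in each, as had 24.1% of all genes in Cd and 13.5% in CdM. In leaves 0 of 3 were called (2.95% and 0.256%), with 0 of 3 at that unadjusted level. Of the 8 falls called, 7 lost their call and kept their direction when the base quality of the libraries entered the fit as a covariate, 5 when the compared groups were fitted alone, and 4 when the most abundant isoform took the place of the gene. Base quality (Q30) was 93.16 to 93.59% in RCd0 and 90.91 to 91.45% in RCd5. It was 92.43 to 93.87% in LCd0 and 89.39 to 91.62% in LCd5. The CdM libraries of day 5 also lay below those of day 0 in both tissues. Base quality and day therefore cannot be told apart in the comparisons of day 0 with day 5. In bulk tissue fewer cells expressing a gene and less RNA per cell cannot be told apart.

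**Figure D2:**
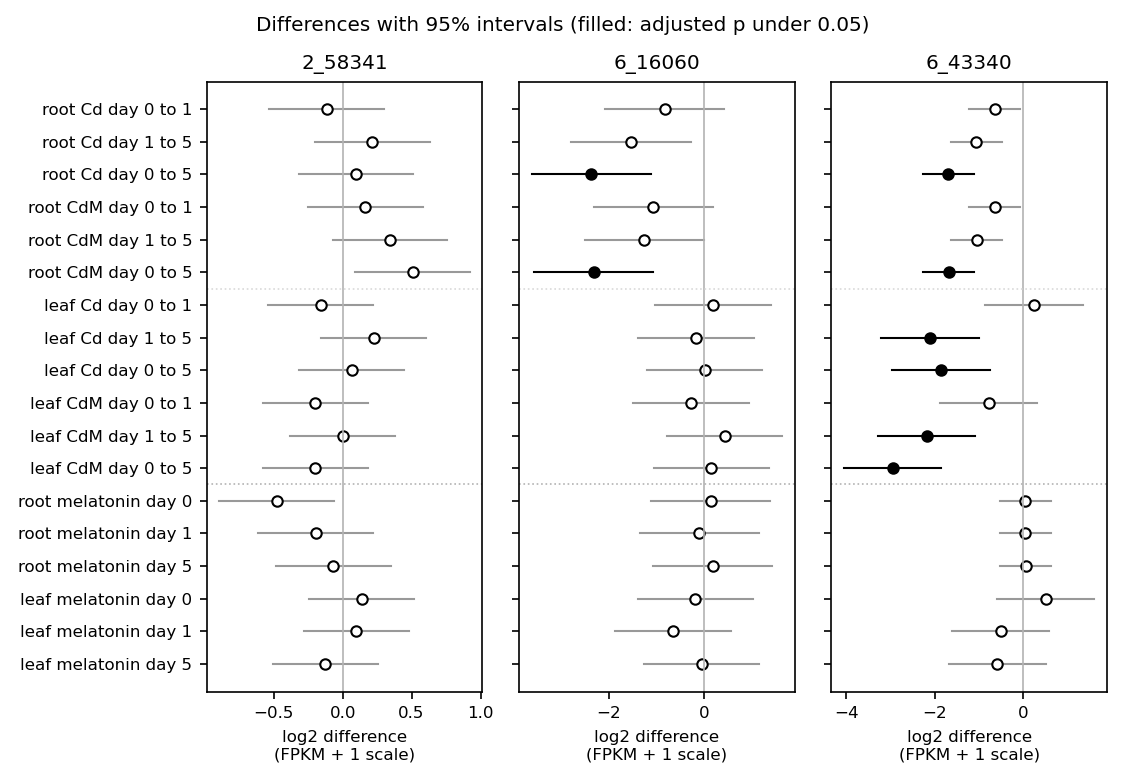
Differences on the log2(FPKM + 1) scale (x) for each SOD1 gene (panels) in 18 comparisons within a tissue, with 95% intervals. Filled points passed an adjusted p under 0.05 in limma, and the melatonin rows are CdM minus Cd. The 8 filled points are falls to day 5, 2 of them in 6_16060 and 6 in 6_43340, and no melatonin row is filled.

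Differences between the tissues were common in the whole data, and the 3 genes did not stand out by their number. Averaged over the 6 conditions 2 of 3 were lower in roots, as were 36.5% of all genes, and 1 of 3 was higher, as were 44.6% of all genes (6_16060, by 0.60 with SE 0.24 and adjusted p = 0.026, lost at 0.050 without RCdM5 replicate 2). By condition 3 of 3 were called in Cd0 (62.2% of all genes) and CdM0 (62.1%), 2 of 3 in Cd1 (60.2%) and CdM1 (60.3%), and 1 of 3 in Cd5 (61.6%) and CdM5 (59.1%), the last being 2_58341. The summed photosystem II genes differed between the root groups as well, with 163 to 199 FPKM in RCd0 and 616 to 933 FPKM in RCdM0, and their part in the root values was not tested.

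The melatonin pretreatment changed none of the 3 genes by a called amount on any day. Over the 18 tests of CdM minus Cd, limma called 0, and 1 had an unadjusted p under 0.05, which was 2_58341 in roots on day 0 at -0.48 (95% interval -0.89 to -0.06, adjusted p = 0.19). In roots 0.244% of all genes were called on day 0, where 3617 of 17227 (21.0%) had an unadjusted p under 0.05. On day 1 it was 6.5%, and on day 5 it was 0.0%, where 706 of 17227 had an unadjusted p under 0.05. In leaves it was 0.0238% on day 0, 0.0% on day 1, where 757 of 16800 had an unadjusted p under 0.05, and 0.0774% on day 5. A p that misses the threshold does not show that the levels were alike, and the intervals were wide for the scattered genes.

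For 6_16060 in roots the difference of CdM minus Cd was 0.13 (95% interval -1.11 to 1.38) on day 0, -0.10 (-1.35 to 1.15) on day 1 and 0.18 (-1.07 to 1.43) on day 5. For 6_43340 in roots it was closer to 0 and better bounded, with 0.06 (-0.52 to 0.64), 0.06 (-0.52 to 0.63) and 0.06 (-0.51 to 0.64). In leaves 6_43340 gave 0.52 (-0.58 to 1.63) on day 0, -0.50 (-1.60 to 0.60) on day 1 and -0.57 (-1.68 to 0.53) on day 5, so its direction changed between days without any call. The effect of melatonin on the change between days was not called in any of 18 tests (adjusted p 0.65 or higher, 0 with an unadjusted p under 0.05), and from day 0 to day 5 it was called for 0.0% of all genes in roots and 0.0357% in leaves.

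The levels of the 3 genes were also added together. The sum was 255 ± 16.2 FPKM in RCd0 (SD, n = 3), 158 ± 62.9 FPKM in RCd1 and 63.5 ± 24.5 FPKM in RCd5, and 284 ± 80.8, 151 ± 72.2 and 70.3 ± 36.4 FPKM in the melatonin groups. In leaves it was 175 ± 18.2, 212 ± 79.6 and 133 ± 17.02 FPKM without melatonin and 206 ± 50.1, 167 ± 81.6 and 124 ± 34.4 FPKM with it. In roots the day 5 sums lay below all day 0 sums in both treatments, and in leaves they did so in Cd (114 to 146 against 159 to 195 FPKM) and overlapped in CdM (85.7 to 152 against 149 to 236 FPKM). The share of 6_16060 in the sum was 86.8, 88.5 and 83.0% in RCd0 and 85.3, 49.1 and 81.5% in RCd5, so that RCd5 replicate 2 stood apart and the other 2 libraries averaged 83.4%. The share of 2_58341 was 1.74, 1.69 and 3.00% in RCd0 and 6.998, 20.7 and 6.04% in RCd5, with a mean of 11.2% that was 6.52% without replicate 2. In leaves the share of 6_43340 was 35.1 ± 2.4% in LCd0 and 12.5 ± 3.2% in LCd5, and those of LCdM0 and LCdM5 were 45.1 ± 14.0% and 8.8 ± 1.4%. These sums and shares were not tested.

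**Figure D3:**
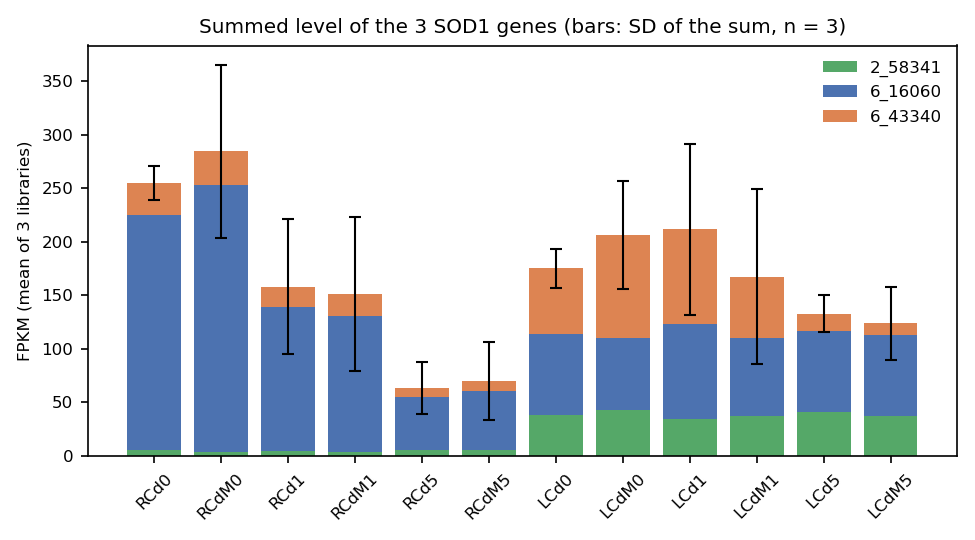
Mean FPKM of the 3 SOD1 genes stacked by group (x), with the SD of their sum over 3 libraries as error bars. The sum is 255 FPKM in RCd0 and 63.5 FPKM in RCd5, most of it 6_16060, while in leaves all 3 genes take part and 6_43340 makes up 8.8% of the sum in LCdM5.

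The isoforms of the 3 genes were listed as reference transcripts (MRNA1) or as isoforms found by long-read sequencing (novel01 and so on). Of the 12 isoforms, 7 passed the filter on low values in each fit. The other 5 were the MRNA1 of 2_58341, above 0 in 3 libraries and at most 0.46 FPKM, novel02 of 6_16060, under 0.001 FPKM in all libraries, its novel03 and novel05, listed at 0 in all 36, and novel02 of 6_43340, which reached 1 FPKM in RCdM5 replicate 1 alone, where it was at 6.13 FPKM.

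6_16060 was read almost wholly as novel04, with 73.8 to 95.6% of the gene's FPKM in roots and 85.9 to 98.8% in leaves, and the rest was novel01. Novel04 followed the gene, at 211, 225 and 186 FPKM in RCd0 and 57.4, 12.8 and 61.7 FPKM in RCd5. Its change of -2.49 (SE 0.65) did not pass in the fit of 33069 isoforms (adjusted p = 0.058), and that in CdM was -2.38 (adjusted p = 0.094). The minor novel01 was steadier between replicates and did pass, from 9.68, 14.9 and 12.8 FPKM in RCd0 to 5.42, 4.57 and 4.58 FPKM in RCd5, with a change of -1.18 (SE 0.23, adjusted p = 0.015), and of -1.54 (SE 0.23, adjusted p = 0.0045) in CdM.

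6_43340 was read mainly as its reference transcript MRNA1, 44.6 to 100% of the gene in roots and 82.5 to 98.6% in leaves. The 44.6% was in RCdM5 replicate 1, where novel02 held 41.9%. MRNA1 itself was at 6.54, 6.15 and 6.67 FPKM in RCdM5 after 25.9, 31.1 and 27.4 FPKM in RCdM0, a change of -1.96 (SE 0.19, adjusted p = 0.00026). In RCd5 it was at 5.65, 8.75 and 8.77 FPKM, and the change without melatonin was -1.69 (SE 0.19, adjusted p = 0.00061), and MRNA1 also passed in roots from day 1 to day 5, by -1.06 (adjusted p = 0.019) in Cd and -1.26 (adjusted p = 0.031) in CdM. In leaves MRNA1 changed by -1.81 (adjusted p = 0.055) in Cd and by -3.03 (adjusted p = 0.0029) in CdM from day 0 to day 5, and novel01 by -1.61 (adjusted p = 0.025) and -1.11 (adjusted p = 0.097).

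2_58341 was split between novel01, novel03 and novel02, and in several groups the split differed more between replicates than the sum. In LCd0 novel01 was at 36.2, 21.9 and 18.6 FPKM and novel03 at 0.008, 9.50 and 18.0 FPKM, whereas the gene was at 36.2, 40.2 and 39.2 FPKM. In LCdM5 it was the reverse, with a coefficient of variation of 24.5% for the gene and 7.86% for novel01. The median coefficient of variation within a leaf group was 11.2% for the gene, 25.0% for novel01, 82.5% for novel03 and 115% for novel02. In roots these were 19.1%, 42.0%, 77.5% and 134%. The sources used here do not say how reads that fit several isoforms were divided among them.

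**Figure D4:**
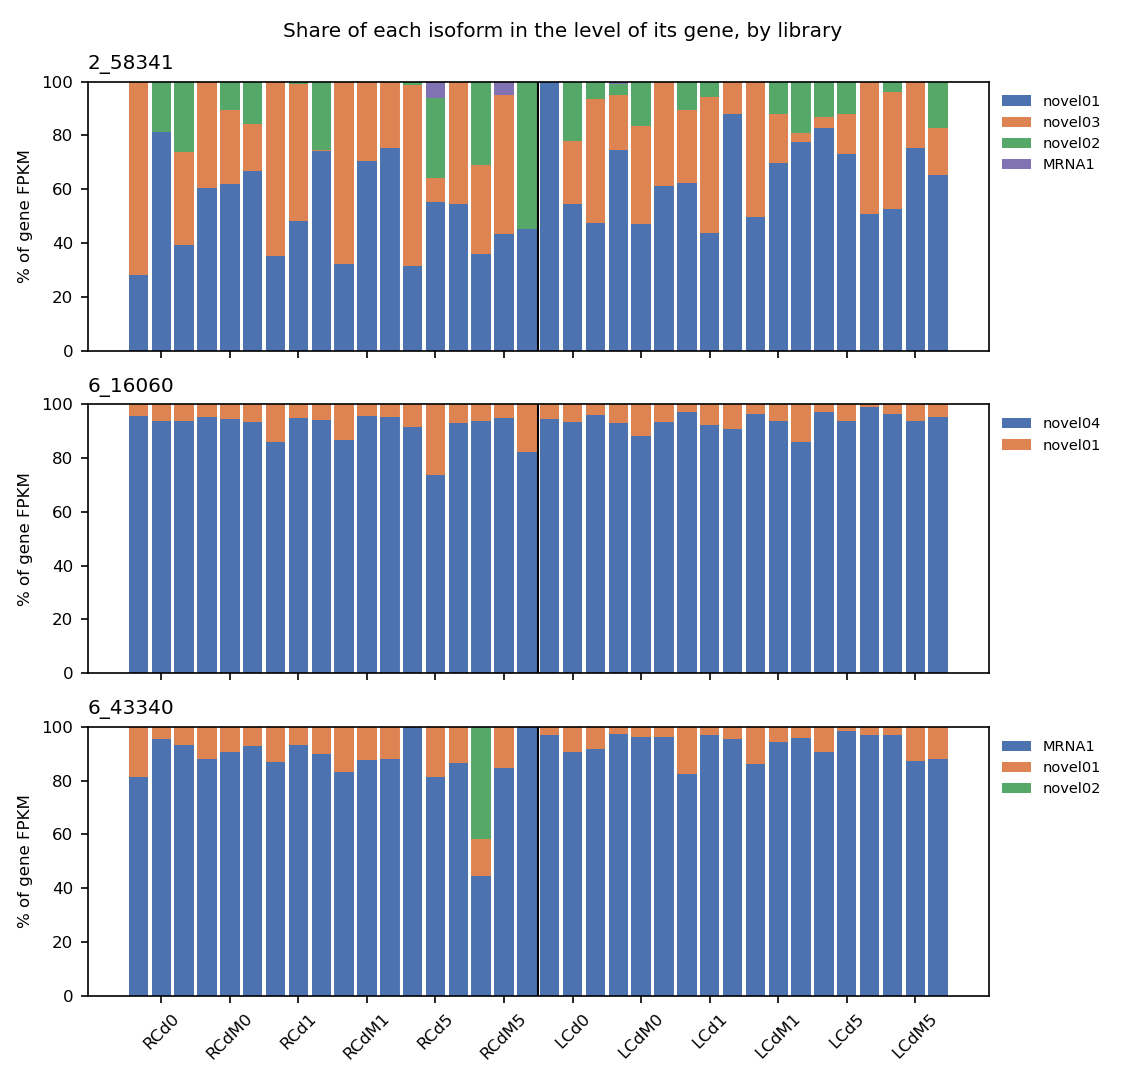
Share of each isoform in the FPKM of its gene (y, percent) in the 36 libraries, 3 adjacent bars per group, roots left of the black line. 6_16060 and 6_43340 are mostly 1 isoform, with RCdM5 replicate 1 the exception for 6_43340, and the split of 2_58341 differs between replicates of the same group.

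Of the 7 isoforms, 2 were called lower in roots from day 0 to day 5 in Cd (1.42% of all isoforms tested) and 2 in CdM (0.499%). In leaves 1 was lower in each (6.54% and 8.7%). Between the tissues 5 of 7 were called over the mean of 6 conditions (68.5% of all isoforms), and the 3 tested isoforms of 2_58341 were all lower in roots, by -2.90 (SE 0.13) for novel01, -1.03 (SE 0.37) for novel02 and -1.88 (SE 0.37) for novel03.

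The share of the most abundant isoform was compared between the tissues by a two-sided permutation test with 100000 resamples within treatment and day, adjusted over the 3 genes. Novel01 of 2_58341 held 52.1 ± 16.9% in roots and 65.3 ± 15.9% in leaves (SD, n = 18 each, difference -13.2 points, permutation p = 0.032, adjusted p = 0.048). MRNA1 of 6_43340 held 87.1 ± 11.9% and 93.3 ± 4.6% (-6.17 points, permutation p = 0.027, adjusted p = 0.048). Novel04 of 6_16060 held 91.5 ± 5.8% and 93.8 ± 3.2% (-2.31 points, permutation p = 0.18). Neither call was firm, since that of 2_58341 was lost without replicate 1 (-3.17 points) and without replicate 3 (-16.8 points), and that of 6_43340 without any of the 3 replicate numbers (-3.74 to -8.12 points, adjusted p 0.063 to 0.21).

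Among the genes that the study's tables put under superoxide metabolic process, 4 in all, were 6_16060, 6_43340, Lsat_1_v5_gn_6_10640 and Lsat_1_v5_gn_2_125000. Those tables list genes chosen for their change in the same libraries, so their direction is not independent evidence. Of these genes, 3 of the 4 were lower in roots on day 5 than on day 0 in Cd and 3 of 4 in CdM, with a median change of -1.52 and -1.51 where the median of all genes was 0.01 and -0.02. The 3 were 6_16060, 6_43340 and 6_10640, so only 6_10640 adds to the falls given above. Of all genes, 2.98% in Cd and 1.04% in CdM were called lower. In leaves 1 of 4 was lower in each, which was 6_43340, with 11.1% of all genes called lower in Cd and 14.8% in CdM.

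6_10640 fell in roots as well. It was at 20.9, 22.1 and 22.2 FPKM in RCd0, at 16.4, 13.6 and 15.8 FPKM in RCd1, and at 7.44, 6.53 and 10.0 FPKM in RCd5, with no overlap between days. The change from day 0 to day 5 was -1.35 (SE 0.18, adjusted p = 0.00086), and with melatonin it was -1.35 (SE 0.18, adjusted p = 0.00094). In leaves it was -0.92 in both treatments and did not pass (adjusted p of 0.14 and 0.12). 2_125000, which is also listed under antioxidant activity, was at 122, 197 and 143 FPKM in RCd0 and 111, 73.8 and 116 FPKM in RCd5, a change of -0.62 (adjusted p = 0.36).

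Over the 36 libraries the gene whose log2 levels were most like those of 6_16060, out of 18056, was 6_10640, with a Pearson r of 0.70, before Lsat_1_v5_gn_4_94561 (0.67) and Lsat_1_v5_gn_8_141260 (0.64). Over the 18 root libraries r was 0.89, where 6_10640 again ranked 1, and over the 18 leaf libraries it was 0.35, where it ranked 624, a difference that was not tested. 6_10640 was also the gene most like 6_43340 in roots (r = 0.94, rank 1) and was near it in leaves (r = 0.86, rank 268), although over all 36 libraries, where the tissues differ in level, r was 0.51. Within groups, after the mean of each group was removed, r in roots was 0.59 for 6_16060 with 6_10640 and 0.53 for 6_43340 with 6_10640, and -0.04 for 6_16060 with 6_43340. In leaves the same values were 0.59, 0.79 and 0.44. These values describe libraries that share tissue, day and treatment, and since the pairs were picked for likeness no test is given.

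**Figure D5:**
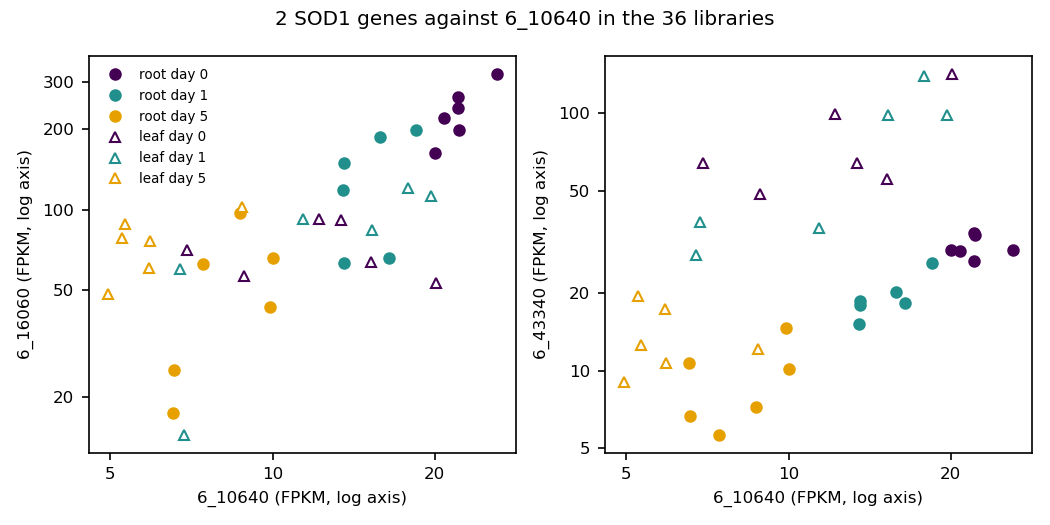
FPKM of 6_16060 (left) and 6_43340 (right) against 6_10640 in the 36 libraries, on log axes, with circles for roots, triangles for leaves and colours for days. The root libraries line up from day 5 (low on both axes) to day 0 in both panels, with r = 0.89 and 0.94 on the log2(FPKM + 1) scale, and the leaf libraries give r = 0.35 and 0.86.

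6_43340 was most like Lsat_1_v5_gn_2_2200 (r = 0.88), Lsat_1_v5_gn_8_82300 (0.87) and Lsat_1_v5_gn_2_65701 (0.86) over the 36 libraries, with 0.78, 0.71 and 0.64 in roots. For 2_58341 these were Novelgene0590 (0.99), Lsat_1_v5_gn_7_99420 (0.99) and Lsat_1_v5_gn_2_73880 (0.99). Within one tissue r was lower than over both, and in leaves it was 0.51, 0.53 and 0.85 and in roots 0.69, 0.59 and 0.38. With each other 6_16060 and 6_43340 had r = 0.76 in roots and 0.15 in leaves.

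Other antioxidant lists of the same tables were also picked on these libraries. Of 29 tested genes under antioxidant activity, 8 were lower and 1 was higher in roots from day 0 to day 5 in Cd (median -0.45), and in CdM 0 were lower and 1 was higher (median -0.11), where 2.98% and 1.04% of all genes were lower. Of 17 under response to oxidative stress, 8 were lower and 4 higher in Cd (median -1.05), and 0 lower and 4 higher in CdM (median 0.04). The share of all genes called higher is not given here, so the counts of rises cannot be read against it. The effect of melatonin on this change was called for 0 of the 29 and 0 of the 17, as for 0.0% of all genes (limma, 1416 of 17227 with an unadjusted p under 0.05). Lsat_1_v5_gn_3_102601, on both lists, fell by 3.36 in Cd (adjusted p = 0.00068) and changed by 0.04 in CdM. Its treatments already stood apart on day 0, with means of 69.0 FPKM in RCd0 and 15.9 FPKM in RCdM0. On day 5 the means were 6.21 FPKM in RCd5 and 15.8 FPKM in RCdM5. Lsat_1_v5_gn_8_129120, also on both, fell by 2.43 (adjusted p = 0.019) and changed by -1.60 in CdM (adjusted p = 0.14). It too differed on day 0, with means of 2236 FPKM in RCd0 and 1112 FPKM in RCdM0, and 445 FPKM in RCd5 and 375 FPKM in RCdM5. Among the rises were Lsat_1_v5_gn_8_10740, by 2.50 in Cd and 2.49 in CdM, Lsat_1_v5_gn_8_13440, by 3.84 and 2.88, and Lsat_1_v5_gn_5_175381, by 2.33 and 2.84. For the falling SOD1 genes the change in CdM minus that in Cd was 0.04 (95% interval -1.72 to 1.81) for 6_16060 and 0.003 (-0.81 to 0.82) for 6_43340.

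Copper transport, which supplies the metal of these enzymes, was represented by 3 genes. Like the glutathione and ascorbate genes below, they came from study tables of genes chosen for their change in the same libraries. Counts on these lists are therefore not independent evidence, and the shares of all genes are no fair baseline for them. None of the 3 copper transport genes passed in roots from day 0 to day 5 in either treatment. From day 0 to day 1 in Cd, where 9.36% of all genes were called in either direction, 2 of 3 were higher, Lsat_1_v5_gn_8_70441 by 1.36 (adjusted p = 0.0063) and Lsat_1_v5_gn_7_58180 by 0.96 (adjusted p = 0.012). In CdM, where 1.21% of all genes were called, 8_70441 was higher by 1.22 (adjusted p = 0.044). These 2 were named after their values were seen. The study itself reports copper transporters among the genes raised in roots of Cd from day 0 to day 1, so these rises are not a separate finding. The share of all genes called higher alone is not given here. Of the 6 genes of glutathione metabolism 0 passed in roots from day 0 to day 5 in Cd (median 0.13) and 0 in CdM (median -0.11), and in leaves 4 fell in Cd (median -0.91) and 5 in CdM (median -0.84), where 11.1% and 14.8% of all genes fell. Of the 4 genes of ascorbate and aldarate metabolism 0 passed in roots in Cd (median 0.12). In roots of CdM 1 fell (median -0.07), where 1.04% of all genes were called lower. In leaves 2 fell in Cd (median -0.56) and 2 in CdM (median -0.44), where 11.1% and 14.8% of all genes were called lower.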

How the data were processed

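RNA-seq of 36 libraries was taken as deposited by the authors, in FPKM per isoform. Reads were aligned to a long-read transcriptome with TopHat2 2.0.12, and the submitters' processing notes give Bowtie2 2.0.6 where the methods name another version. For the tool that gave FPKM per isoform, and for any scaling between libraries: not given in the sources used here. Isoforms were summed per gene after removal of the isoform suffix. Genes that reached 1 FPKM in 3 or more of the fitted libraries were analysed as log2(FPKM + 1), which understates changes of low genes, in limma 3.58.1 under R 4.3.3 (lmFit, contrasts.fit, eBayes with trend), with 1 mean per group, in fits of 18 root, 18 leaf or all 36 libraries (17227, 16800 and 18056 genes). Benjamini-Hochberg adjustment ran over all genes of a fit, and calls were made at 0.05. Isoforms were fitted likewise. Read totals per library were not used here, and FPKM do not give the reads behind a value. The fits were tested on simulated data. Python 3.11.15 (numpy 2.4.6, pandas 2.3.3, scipy 1.17.1) made the tables.

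The members and lists were chosen with earlier results of these data known. Genes named are the 3 SOD1 genes, the other genes under superoxide metabolic process, the 3 genes most like each by Pearson r, and up to 2 called rises and 2 called falls per list in roots of Cd from day 0 to day 5. Alternatives were a pseudocount of 0.1, no filter, scaled libraries, base quality per library from the study's sequencing information as a covariate, the compared groups alone, a replicate block, the most abundant isoform, and each library left out.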

Additional observations from a re-analysis of the deposited data

How the results depend on the processing

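Across 7 other settings, 750 of 774 values stayed on the same side of the threshold, 20 calls were lost and 4 were gained. No value with a call in either fit changed direction, and the direction of values without a call was not compared. Scaling of libraries and a pseudocount of 0.1 changed no call. Values below are log2 changes between days unless said otherwise, and the cause of each change was not tested.

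Base quality was lower on day 5 than on day 0 in both tissues and treatments, and lower on day 5 than on day 1 in leaves of Cd. As a covariate it therefore overlaps with day. With base quality as a covariate the calls lost were 6_16060 in roots from day 0 to day 5 (-2.43 in Cd, -2.40 in CdM), 6_43340 in the same comparisons (-1.21 and -1.08), and 6_43340 in leaves (-2.62 from day 1 to day 5 and -2.33 from day 0 to day 5 in Cd, -3.38 from day 0 to day 5 in CdM). With the compared groups fitted alone, which leaves fewer samples for the spread, the same changes of 6_16060 (-2.36 and -2.32), 6_43340 in roots of CdM from day 0 to day 5 (-1.68) and 6_43340 in leaves from day 1 to day 5 (-2.10 in Cd, -2.18 in CdM) were lost, and 6_43340 in roots minus leaves in Cd5 (-0.85) and the root minus leaf change of 6_16060 in Cd from day 0 to day 5 (-2.37, adjusted p = 0.039) were gained. With the most abundant isoform 6_16060 was lost in roots (-2.49 and -2.38) and in roots minus leaves (1.54 in Cd0, 0.56 over 6 conditions), as was 6_43340 in leaves of Cd (-2.04 and -1.81), and 6_43340 was gained in roots from day 1 to day 5 (-1.06 and -1.26). Without the filter on low values the CdM change of 6_16060 was lost (-2.32).

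The labels' replicate numbers did not pair the samples: in 1 of 24 comparisons all same-numbered samples deviated together (r over 0.1), and in 4 every sample correlated best with its own number. A replicate block changed 1 call, that of 6_16060 in roots of CdM from day 0 to day 5 (-2.32, adjusted p = 0.067, limma).

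With each library left out in turn, 30 of 972 values lost a call and 6 gained one. The ranges for 6_16060 in roots from day 0 to day 5 were -2.68 to -1.75 in Cd and -2.83 to -1.87 in CdM, and in roots minus leaves 1.43 to 1.69 in Cd0, 0.17 to 1.61 in CdM1 and 0.45 to 0.70 over 6 conditions. Those for 6_43340 were -1.37 to -0.84 in roots of CdM from day 1 to day 5, -2.78 to -1.64 and -1.98 to -1.68 in leaves of Cd from days 1 and 0 to day 5, -2.43 to -1.71 in leaves of CdM from day 1 to day 5, and -1.10 to -0.94 in Cd0 and -1.60 to -0.88 in CdM1 for roots minus leaves. The difference in the share of the most abundant isoform, leaving out 1 replicate number, ran from -19.6 to -3.17 points for 2_58341 and from -8.12 to -3.74 points for 6_43340. FPKM do not give the reads behind a value, so no limit from counting is given.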
